A study of Argyrosomus regius with 12 samples.

Results

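The late-rise module is a set of 200 of the 42480 Trinity genes measured by RNA sequencing in the spleen of meagre (Argyrosomus regius), a bony fish of the sea. A Trinity gene is a group of assembled transcripts that share an identifier. The members were chosen by their measured levels, which were high 24 h after lipopolysaccharide (LPS) and near the control at 4 h. Levels are CPM, the counts scaled to a library total of 1000000. Of all Trinity genes, 15445 averaged at least 5 CPM in the LPS 24 h pools. In 8600 of these, the mean of LPS 4 h replicates 1 and 3 was between 0.67 and 1.5 times the PBS 4 h mean. In 700 of those, the LPS 24 h mean was also above 1.5 times the PBS 4 h mean. These 700 eligible genes were ranked by a score, the log2 ratio of the lowest LPS 24 h pool to the highest PBS 24 h pool, and the 200 highest became the members. All ratios carry 0.5 CPM added to both sides. Every contrast of the pools used for that is a description here, and a count of members called in it tests nothing.

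The fish were juveniles of 22 g and were kept at 22 °C. LPS of the fish pathogen Photobacterium damselae subsp. piscicida, strain Lg41/01, was injected into the body cavity at 10 µg per g of fish, and control fish got saline with phosphate buffer (PBS). Sampling at 24 h or 4 h gave 4 groups, namely LPS 24 h, PBS 24 h, LPS 4 h and PBS 4 h. Each group holds 3 libraries, each a pool of 4 fish, so that 12 fish stand behind a group. No untreated fish are among the groups, and both control groups carry an injection of saline.

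LPS is a component of the outer membrane of Gram-negative bacteria that sets off innate immune responses in vertebrates. Such responses start with quickly induced cytokine and signalling genes, and later hours bring other gene programmes, among them antimicrobial and acute-phase proteins. In bony fish the spleen filters blood, holds many red blood cells, macrophages and lymphocytes, and is a main site of immune responses. Since no gene names stand beside the identifiers in the files, neither a function nor a cell type is given for any member. In bulk tissue, fewer cells of a type and less RNA per cell cannot be told apart.

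Library totals ran from 29614365 to 56556752 counts, and the deepest was LPS 24 h replicate 3. LPS 4 h replicate 2 stood apart from its group. Its counts were nearest to those of LPS 24 h replicate 1, with a chi-square per degree of freedom of 27.6 over genes, and next to those of PBS 4 h replicate 1, with 34.9. Further PBS pools followed at 44.9 (PBS 24 h replicate 2), 51.2 (PBS 24 h replicate 1) and 53.4 (PBS 4 h replicate 3). LPS 24 h replicates 2 and 3 came after these, at 62.3 and 80.2, then PBS 4 h replicate 2 at 129.1 and PBS 24 h replicate 3 at 141.5. The pools of its own group were the furthest, with LPS 4 h replicate 3 at 171 and LPS 4 h replicate 1 at 183.7. The measure grows with library depth and weighs abundant genes most, so its order need not follow likeness alone. By the same measure the libraries of 1 group differed from each other by 43.9 to 183.7, the highest between LPS 4 h replicates 1 and 2. Other libraries were also nearer to a pool of another group than to their own. PBS 4 h replicate 2 was at 123.3 from PBS 24 h replicate 2, against 138.3 and 141.8 within its group. PBS 24 h replicate 1 was at 49.85 from LPS 24 h replicate 1, against 61.74 and 106.4 within its group. PBS 4 h replicate 1, PBS 24 h replicate 2 and LPS 24 h replicate 1 were each nearest to LPS 4 h replicate 2. The nearest pools of their own groups were at 43.85, 61.74 and 54.01. Only LPS 4 h replicate 2 was nearer to every pool of the other groups than to its own group. No library was close enough to another to be counted as a repeat of it. The rule does not use LPS 4 h replicate 2, and results that rest on it are given with and without it. The tissue label could not be checked against markers.

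The mean LPS 24 h level of the members, which the rule used, ran from 5.34 to 2063 CPM with a median of 39.2 CPM, against medians of 28.8 CPM over the 500 other eligible genes and 19.1 CPM over the 15245 other genes above the same minimum of 5 CPM. Their PBS 24 h means had a median of 14.1 CPM, against 15.8 CPM over the other eligible genes and 19.0 CPM over the other genes. There were 50 members above 100 CPM and 57 below 20 CPM. The 10 most abundant members held 40.2% of the summed CPM of the module. The lowest count of any member in any library was 20, and the median member had a median count of 677.

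All members together took up 1.59%, 2.03% and 2.47% of the counts in the LPS 24 h pools, against 0.766%, 0.743% and 0.694% in the PBS 24 h pools. The shares were 1.02%, 1.30% and 1.03% in the LPS 4 h pools and 1.18%, 0.869% and 1.01% in the PBS 4 h pools. The LPS 24 h share was 2.03% ± 0.44 and the PBS 24 h share 0.734% ± 0.036 (mean ± SD, n = 3 pools each). The LPS 4 h share was 1.11% ± 0.16 and the PBS 4 h share 1.02% ± 0.15. The rule used all of these pools except LPS 4 h replicate 2. The gap at 24 h and the closeness at 4 h were thus largely set by the choice of members.

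**Figure D1:**
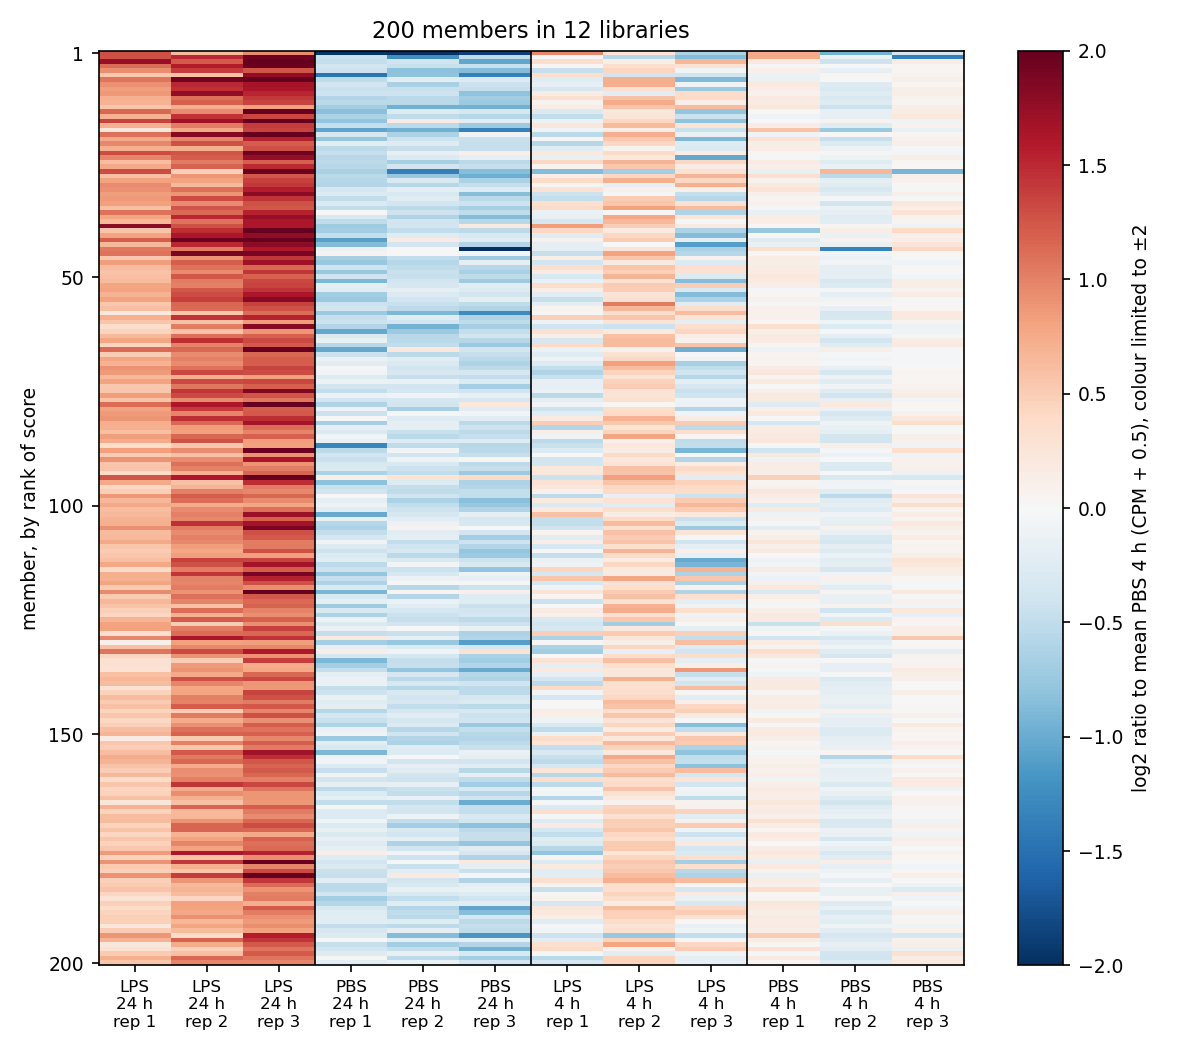
Each line is 1 of the 200 members by rank of score, each column 1 of the 12 pools, and the colour is the log2 ratio of CPM + 0.5 to the PBS 4 h mean, limited to plus or minus 2. LPS 24 h pools are red throughout, PBS 24 h pools mostly blue, LPS 4 h replicate 2 mostly pale red, and LPS 4 h replicates 1 and 3 mixed.

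The leading member, TRINITY_DN1665_c0_g1, had 145, 92.0 and 114 CPM in the LPS 24 h pools, against 14.8, 7.16 and 15.8 CPM in the PBS 24 h pools. It had 115, 71.3 and 37.9 CPM in the LPS 4 h pools, against 101, 30.4 and 46.4 CPM in the PBS 4 h pools. The PBS 24 h pools stood below all other 9 pools, and the LPS 24 h range overlapped that of the PBS 4 h pools. The LPS 24 h mean was 9.01 times the PBS 24 h mean and 1.98 times the PBS 4 h mean, and the PBS 24 h mean was 0.22 times the PBS 4 h mean. The fitted log2 fold change at 24 h was 3.19 in edgeR. A standard error of 0.53 was derived from it, as the log2 fold change divided by the square root of edgeR's F statistic. On the ratio scale, its PBS 24 h mean lay further from the PBS 4 h mean than its LPS 24 h mean did.

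The member of rank 2, TRINITY_DN13431_c0_g1, was also the most abundant of the 200. It had 1635, 1925 and 2628 CPM in the LPS 24 h pools, against 501, 291 and 477 CPM in the PBS 24 h pools. It had 666, 455 and 370.0 CPM in the LPS 4 h pools, against 1153, 619 and 262 CPM in the PBS 4 h pools. All LPS 24 h pools were above every other pool, while the LPS 4 h pools lay within the wide range of the PBS 4 h pools. Its LPS 24 h mean was 4.87 times the PBS 24 h mean and 3.04 times the PBS 4 h mean. It alone supplied 10.2% of the summed LPS 24 h CPM of the module.

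In the member of rank 3 there were 45.4, 31.5 and 57.3 CPM in the LPS 24 h pools, against 9.32, 9.85 and 6.12 CPM in the PBS 24 h pools. It had 16.9, 14.4 and 21.1 CPM in the LPS 4 h pools, against 15.1, 9.79 and 14.6 CPM in the PBS 4 h pools. Its LPS 24 h pools were clear of all others. Rank 4 had 23.1, 32.0 and 41.4 CPM in the LPS 24 h pools, against 7.80, 7.43 and 7.41 CPM in the PBS 24 h pools. Its LPS 4 h pools had 10.6, 13.0 and 12.6 CPM, against 10.1, 10.3 and 10.4 CPM in the PBS 4 h pools. The controls of this member varied little within each time, and its PBS 24 h pools were below all of its PBS 4 h pools.

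The second most abundant member, of rank 18, had 1133, 1667 and 2492 CPM in the LPS 24 h pools, against 467, 499.6 and 381 CPM in the PBS 24 h pools. It had 922, 1069 and 709.7 CPM in the LPS 4 h pools, against 1443, 584 and 888 CPM in the PBS 4 h pools. Its highest PBS 4 h pool was above its lowest LPS 24 h pool. Rank 42 stood highest over the 4 h controls, with 40.4, 68.3 and 102 CPM in the LPS 24 h pools, against 14.3, 18.0 and 19.1 CPM in the PBS 4 h pools, a ratio of means of 4.02. It had 7.77, 19.3 and 14.7 CPM in the PBS 24 h pools and 18.1, 24.4 and 15.1 CPM in the LPS 4 h pools, none of which reached its LPS 24 h pools.

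**Figure D2:**
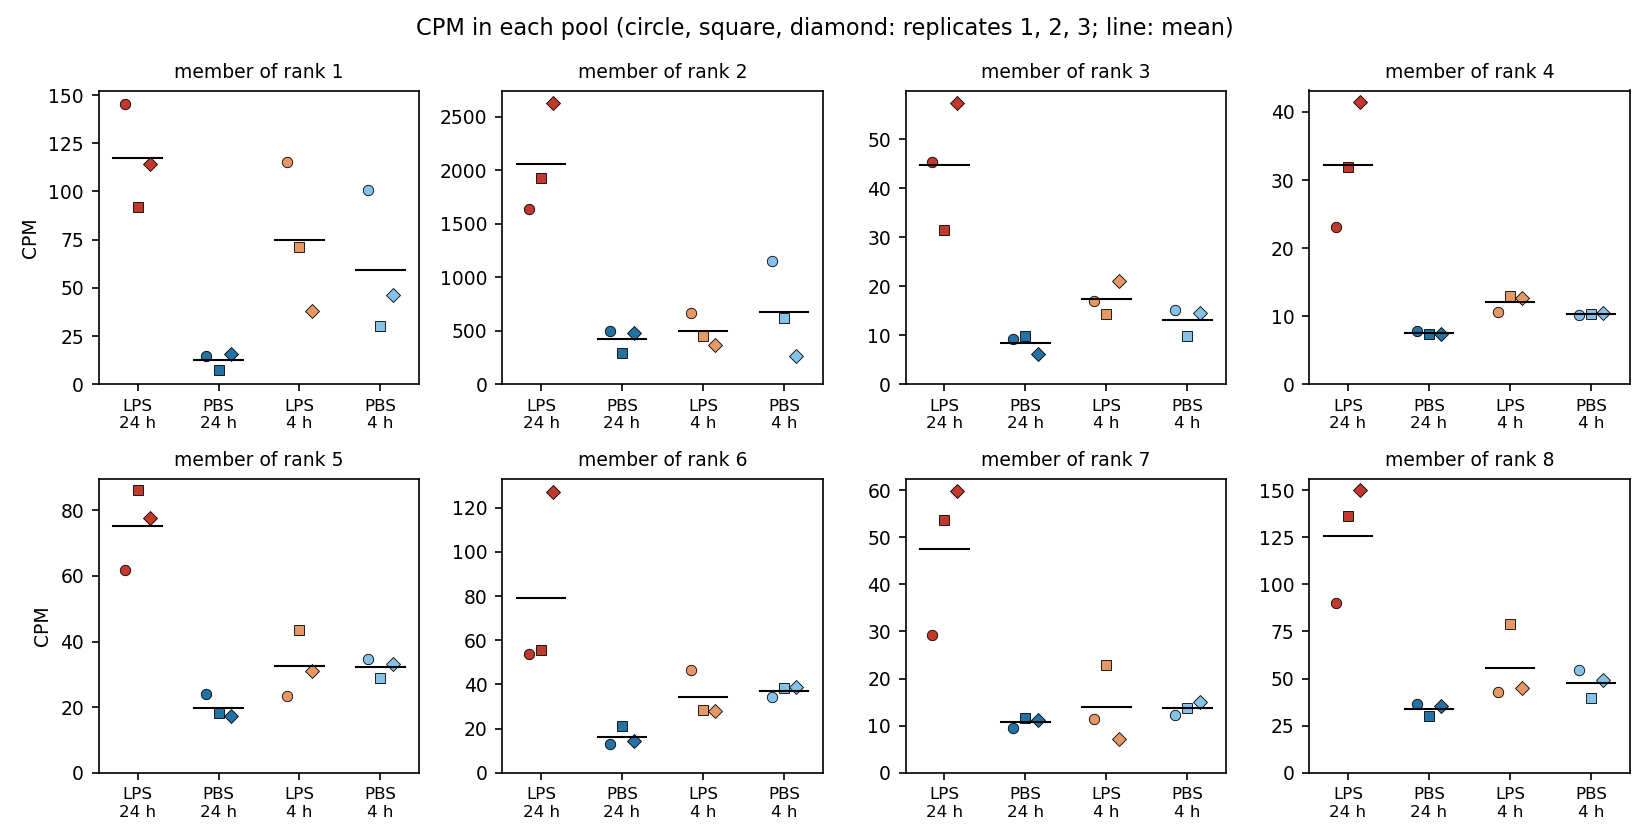
CPM (vertical axis, from 0) of the 8 highest-ranked members in each of the 12 pools, with circles, squares and diamonds for replicates 1, 2 and 3 and a line at the group mean. LPS 24 h pools stand above PBS 24 h pools in all 8, and in rank 1 they overlap the PBS 4 h pools.

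The scores were 2.51 at rank 1, 1.71 at rank 2, 1.27 at rank 10, 1.00 at rank 50, 0.85 at rank 100 and 0.75 at rank 150 on the log2 scale. At the edge of the list the score was 0.680 at ranks 199 and 200, 0.679 at rank 201 and 0.676 at rank 202. The last member, of rank 200, had 586, 784 and 787 CPM in the LPS 24 h pools, against 346, 365 and 309 CPM in the PBS 24 h pools. The gene of rank 201, left out, had 6.89, 8.05 and 8.63 CPM in the LPS 24 h pools, against 3.17, 4.12 and 2.78 CPM in the PBS 24 h pools. The list thus ends inside a continuous series, and 607 of the 700 eligible genes had a score above 0.

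At 24 h the ratio of the LPS mean to the PBS mean had a median of 2.64 over the members, ran from 1.96 to 9.01, and was above 2 in 195 members, above 3 in 57 and above 4 in 11. The same ratio had a median of 1.78 over the 500 other eligible genes and 1.01 over the 15245 other genes. Over the PBS 4 h mean, the LPS 24 h mean of the members had a median ratio of 1.99 and a range of 1.51 to 4.02. In the edgeR quasi-likelihood fit, 196 of 200 members were called higher in the LPS pools of 24 h at an adjusted p below 0.05, beside 2.98% of all genes called higher and 3.25% called in either direction. The rule used these pools, so the count describes the members and tests nothing. It was 15 without PBS 24 h replicate 2, beside 0.084% of all genes called higher in that fit. It was 82 without LPS 24 h replicate 3 (0.499% of all genes), 117 without PBS 24 h replicate 3 (0.855%) and 128 without LPS 24 h replicate 2 (0.919%).

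The LPS 24 h pools were all above the PBS 24 h pools in all 200 members by construction, beside 21.9% of genes with a mean LPS 24 h level of at least 5 CPM. They were all above the PBS 4 h pools in 194 members, beside 17.4% of those genes. They were the 3 highest of all 12 libraries in 147 members, beside 8.61% of those genes. On the TMM scale this held in 137 members, and no share of those genes is given on that scale. These counts also follow in large part from the rule. It asks for an LPS 24 h mean above 1.5 times the PBS 4 h mean and limits LPS 4 h replicates 1 and 3. The 6 members whose LPS 24 h pools overlapped the PBS 4 h pools had ranks 1, 18, 27, 130, 194 and 197.

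The 3 LPS 24 h pools were not equally high. Relative to the PBS 4 h mean, the median member stood at a log2 ratio of 0.64 in LPS 24 h replicate 1, 1.00 in replicate 2 and 1.23 in replicate 3. The other eligible genes had the same order, with medians of 0.469, 0.781 and 0.895. On the TMM scale their medians were 0.54, 0.94 and 0.82, with replicate 1 again the lowest. Replicate 1 was the lowest of the 3 in 187 members (93.5%), against 41.3% of the other genes, and was the lowest in 189 on the TMM scale. Replicate 3 was the highest in 165 members on plain CPM, and in 104 on the TMM scale, where replicate 2 was the highest in 93. The highest LPS 24 h pool was a median of 1.56 times the lowest over the members, against 1.37 over the other genes. In the PBS 24 h pools that ratio was 1.25 over the members and 1.45 over the other genes. The score takes the highest PBS 24 h pool and the lowest LPS 24 h pool, and so favours even pools in both groups. The members were more even than the other genes in the PBS 24 h pools only. The part of the rule in either spread was not tested.

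**Figure D3:**
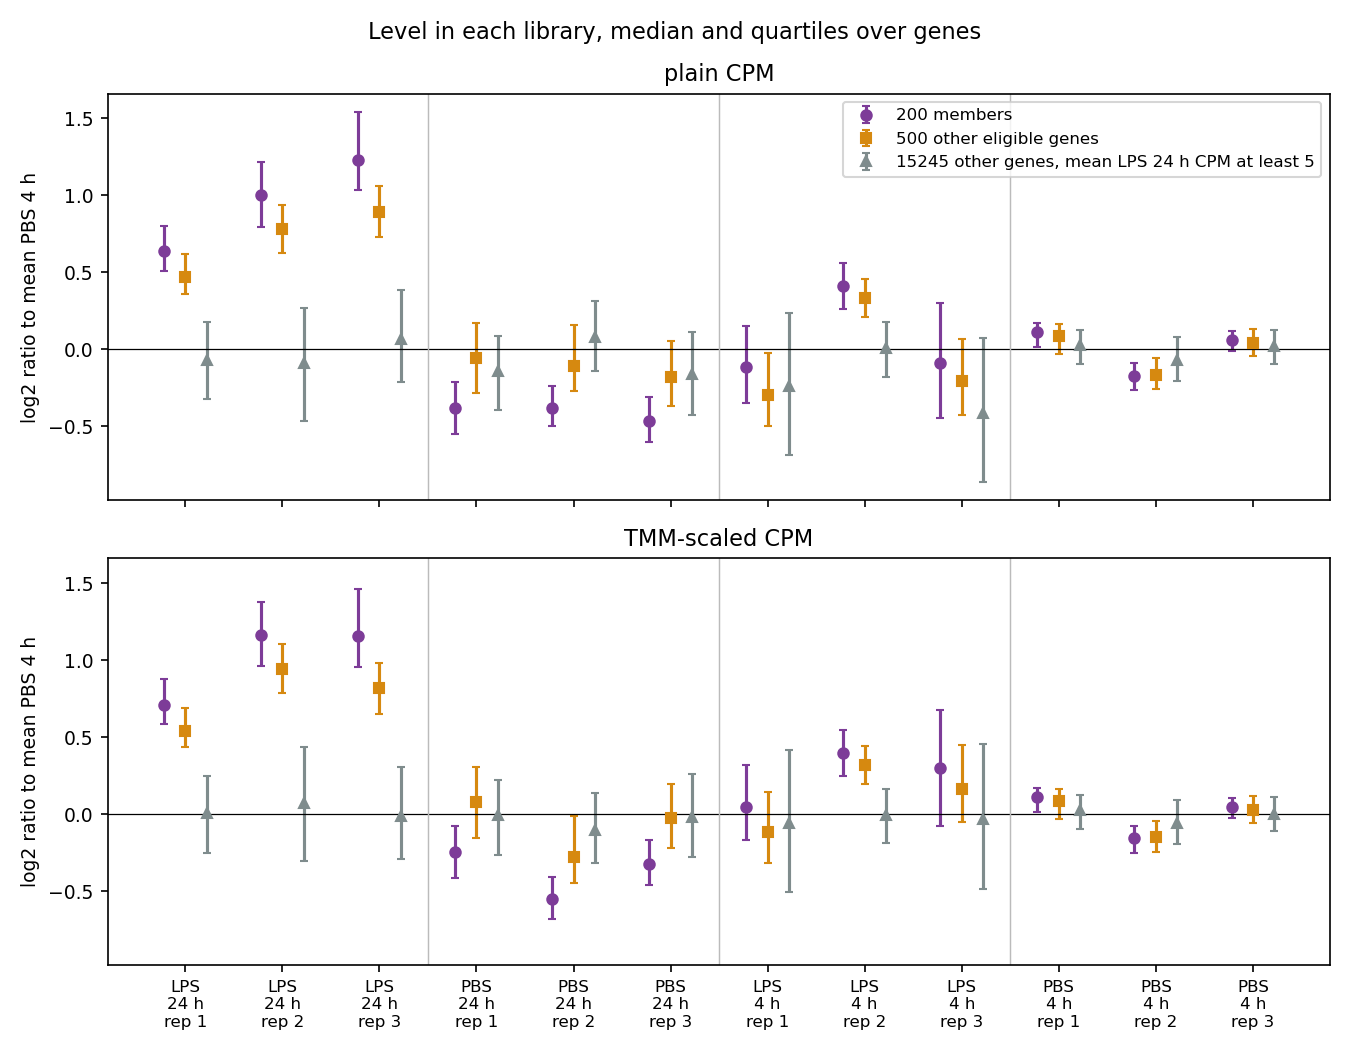
Median (point) and quartiles (bar) over genes of the log2 ratio to the PBS 4 h mean in each of the 12 pools, for the 200 members, the 500 other eligible genes and the 15245 other genes with a mean LPS 24 h level of at least 5 CPM, on plain CPM above and TMM-scaled CPM below. Member medians are 0.64, 1.00 and 1.23 in LPS 24 h pools and -0.38, -0.38 and -0.47 in PBS 24 h pools on plain CPM, and LPS 4 h replicate 2 is at 0.41.

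Saline controls of the members were lower at 24 h than at 4 h. The rule set no filter on this contrast. Its score is taken over the highest PBS 24 h pool, however, and so favours genes with low PBS 24 h levels. The values that follow describe the members so chosen. The PBS 24 h mean had a median ratio of 0.758 to the PBS 4 h mean over the members, 0.926 over the other eligible genes and 0.981 over the other genes. The PBS 24 h mean was above the PBS 4 h mean in 3 members, of ranks 45, 94 and 132, and below it in all others. All PBS 24 h pools were below all PBS 4 h pools in 118 members, beside 11.7% of genes of at least 5 CPM. On the TMM scale this held in 84 members, and no share of those genes is given on that scale. PBS 24 h pools were the 3 lowest of all 12 libraries in 82 members, beside 4.59% of those genes on plain CPM. The edgeR fit called 0 members for PBS 24 h against PBS 4 h, beside 0.0154% of all genes. At an unadjusted p below 0.05 in that fit, 41 members were lower, beside 6.2% of all genes in either direction. DESeq2 called 2 members, both lower, beside 0.829% of the 42217 genes in its fit in either direction.

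A ratio of PBS 24 h to PBS 4 h below 0.67, the lower limit that the rule sets at 4 h for LPS, was met by 29 members (14.5%), against 1.2% of the other eligible genes and 5.85% of the other genes. In these 29, the LPS 24 h mean was a median of 3.11 times the PBS 24 h mean and 1.91 times the PBS 4 h mean. In the 171 others, the same medians were 2.57 and 1.99. The count of 29 was 45 without PBS 24 h replicate 2, 18 without PBS 4 h replicate 1 and 53 without PBS 4 h replicate 2. Expressed as a share, the drop of PBS 24 h below PBS 4 h made up a median of 28.5% of the log2 difference between LPS 24 h and PBS 24 h over the members, against 14.0% over the other eligible genes.

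Controls were level in the member of rank 45. It had 13.6, 24.1 and 24.2 CPM in the LPS 24 h pools, against 6.43, 6.18 and 5.89 CPM in the PBS 24 h pools. In LPS 4 h pools it had 4.32, 11.1 and 3.96 CPM, against 6.21, 5.89 and 6.30 CPM in the PBS 4 h pools. Its controls were alike at both times, and LPS 4 h replicate 2 was above all control pools. Lower controls at 24 h were seen in the member of rank 6, with 53.9, 55.7 and 127 CPM in the LPS 24 h pools, against 13.2, 21.0 and 14.3 CPM in the PBS 24 h pools. It had 46.7, 28.6 and 28.0 CPM in the LPS 4 h pools and 34.1, 38.3 and 38.8 CPM in the PBS 4 h pools. All of its PBS 24 h pools were below all of its 4 h pools.

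**Figure D4:**
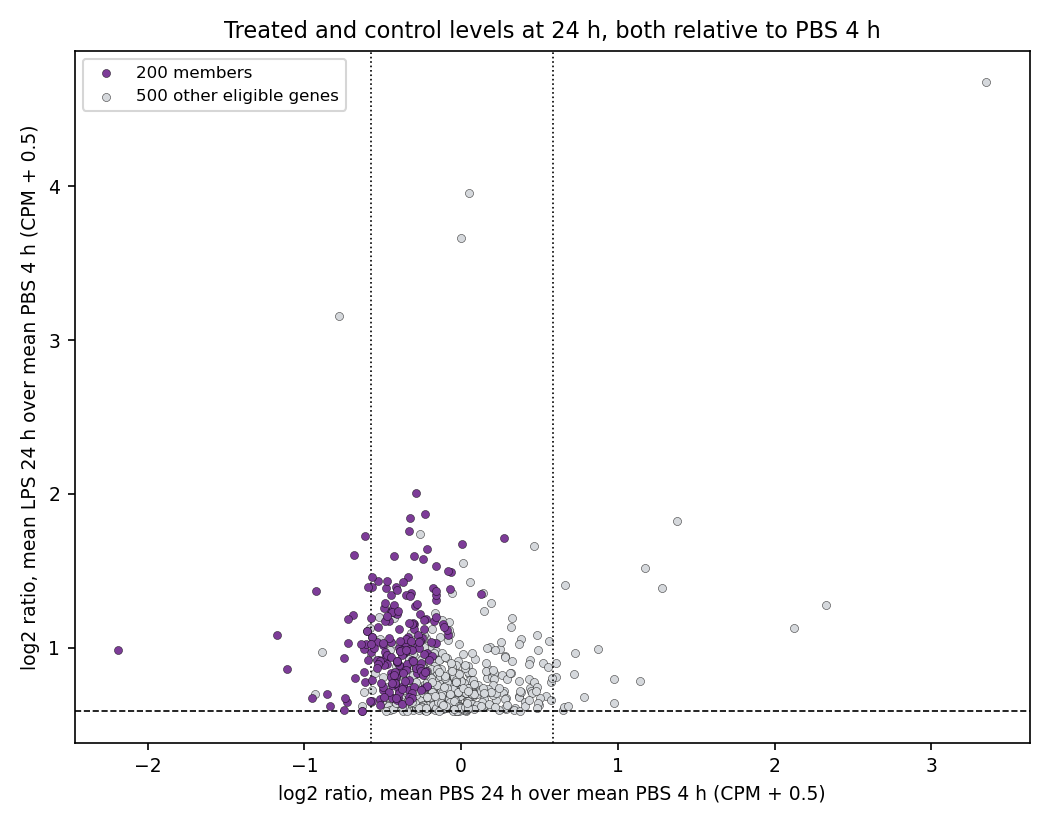
Each point is 1 gene, the 200 members in purple and the 500 other eligible genes in grey, with the log2 ratio of mean PBS 24 h to mean PBS 4 h across and the log2 ratio of mean LPS 24 h to mean PBS 4 h upward (CPM + 0.5), dotted lines at the ratios 0.67 and 1.5 and a dashed line at 1.5. Members lie mostly left of 0, and 4 other eligible genes stand above every member.

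There were 4 eligible genes with a higher ratio of LPS 24 h to PBS 4 h than any member. In 0 of these were the LPS 24 h pools all above the PBS 24 h pools, and their highest LPS 24 h pool was at least 36.1 times their lowest. Among the members that ratio was at most 2.81. The score, which takes the lowest LPS 24 h pool, leaves such genes out.

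At 4 h the near-control level of LPS replicates 1 and 3 is fixed by the rule. LPS 4 h replicate 2, which the rule does not use, had a median ratio of 1.33 to the PBS 4 h mean over the members, with quartiles of 1.20 and 1.47. As log2 ratios, its medians were 0.413 over the members, 0.335 over the other eligible genes and 0.0053 over the other genes. The other eligible genes thus stood nearly as high in this pool as the members. Replicate 2 lay inside the rule's own limits of 0.67 and 1.5 in 158 members, above them in 39 and below them in 3. It was above the PBS 4 h mean in 186 members (93.0%) and above all PBS 4 h pools in 165 (82.5%), against 74.8% of the other eligible genes and 27.4% of the other genes. It was above all PBS 4 h pools and both other LPS 4 h pools in 149 members (74.5%), and in 97 on the TMM scale. The LPS 24 h mean was still above it in all 200 members, with a median ratio of 1.45. Replicate 2 was above the lowest LPS 24 h pool in 43 members, and in 17 on the TMM scale. Apart from the count of 165, no share over the other genes is given for these counts. They are thus not shown to be particular to the members. Over all genes LPS 4 h replicate 2 was nearer to every pool of the other groups than to either pool of its own group, as given above. The part of that in the members' values was not tested.

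Ranks 7 and 8 are examples. The member of rank 7 had 11.5, 22.9 and 7.20 CPM in the LPS 4 h pools, against 12.4, 13.7 and 14.9 CPM in the PBS 4 h pools, and 29.2, 53.6 and 59.7 CPM in the LPS 24 h pools. That of rank 8 had 42.7, 79.1 and 44.8 CPM in the LPS 4 h pools, against 54.4, 39.6 and 49.0 CPM in the PBS 4 h pools, and 90.1, 136 and 149.9 CPM in the LPS 24 h pools. In both, replicate 2 was between the controls and the LPS 24 h pools, and replicates 1 and 3 were within or below the range of the controls. In 14 members replicate 2 was below the PBS 4 h mean, among them ranks 2 and 6.

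In LPS 4 h replicates 1 and 3, the median ratio of the members to PBS 4 h was 0.938 on plain CPM and 1.14 on the TMM scale, so that its direction flipped with the scaling. The 15245 other genes had medians of 0.813 and 0.987 on these scales. On the TMM scale 43 members were above 1.5 and 157 were inside the limits of 0.67 and 1.5. As log2 ratios, the medians were -0.09 over the members and -0.30 over the other genes on plain CPM, and 0.19 over the members and -0.02 over the other genes on the TMM scale. The rule limits this ratio in the members and not in the other genes.

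The edgeR fit called 0 members for LPS 4 h against PBS 4 h, beside 0.00307% of all genes. At an unadjusted p below 0.05 in that fit, 56 members were higher, beside 19.7% of all genes in either direction. DESeq2 called 13 members, all higher, beside 5.47% of all genes in either direction. Without LPS 4 h replicate 2, edgeR called 22 members, all higher, beside 11.1% of all genes called higher and 22.2% called in either direction. All pools of that contrast were used by the rule, so the count is a description. The median fitted log2 fold change of the members was 0.27 with LPS 4 h replicate 2 and 0.19 without it.

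For LPS 24 h against LPS 4 h, edgeR called 82 members, all higher, beside 3.14% of all genes called higher and 7.79% called in either direction. Without LPS 4 h replicate 2 it called 118, beside 15.8% called higher and 30.2% in either direction. That contrast holds only pools that the rule used, so the count describes the members and tests nothing. With only the LPS pools in the fit, edgeR called 0 members, and 0 of all 30762 genes in that fit. It also called 0 without LPS 4 h replicate 1, LPS 4 h replicate 3, LPS 24 h replicate 2 or LPS 24 h replicate 3, where at most 0.00299% of all genes were called higher. It called 45 without LPS 24 h replicate 1 (0.716% of all genes), 53 without PBS 4 h replicate 1 (1.14%) and 53 without PBS 4 h replicate 3 (1.36%).

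An LPS effect that differed between 24 h and 4 h was called by edgeR in 0 members with all libraries, beside 0.0154% of all genes. At an unadjusted p below 0.05 in that fit there were 186 members, all higher, beside 17.4% of all genes in either direction. Without LPS 4 h replicate 2 it was called in 134 members, beside 9.53% of all genes called higher and 16.2% in either direction. DESeq2 with all libraries called 108 members, all higher, beside 2.48% of the 42217 genes in its fit in either direction. These comparisons share pools with each other and with the rule, so their counts describe the members and test nothing.

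The same measure could be read in pools that a choice of 200 did not use. Chosen without LPS 24 h replicate 1, 2 or 3, the 200 genes had that pool above all PBS 24 h pools in 200, 198 and 199 cases, against 83.4%, 78.8% and 74.7% of the eligible genes not chosen and 28.0%, 34.0% and 40.2% of all genes of at least 5 CPM. Chosen without PBS 24 h replicate 1, 2 or 3, they had that pool below all LPS 24 h pools in 200 cases each, against 89.6%, 87.4% and 90.4% of the eligible genes not chosen and 38.3%, 29.2% and 45.9% of all genes. Each such list shared 149 to 184 genes with the members. The remaining group was used in the choice, so the pool left out is new on its own side only. These counts are in large part set by the pools still used, and they are descriptions that test nothing.

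How the counts of a gene split among its isoforms is not used by the rule directly. The rule chose a rise of the sum over isoforms, however, so the split is not independent of the choice. Most members have 1 isoform, and 33 (16.5%) have several, against 21.7% of the other genes. Among the 59 isoforms of these 33 members with at least 1 CPM on average at 24 h, 46 had all LPS 24 h pools above all PBS 24 h pools and 1 had them all below. The most abundant isoform was higher in this way in all 33. At least 2 isoforms were higher in this way in 9 members. The rule chose the sum over isoforms to be higher in these pools, so these isoform counts follow largely from the choice. They are descriptions, and no share over all isoforms is given. For the 28 members that could be tested, edgeR's diffSpliceDGE called 2 for a changed split between LPS 24 h and PBS 24 h pools, with ranks 85 and 97, beside 1.08% of the genes tested. A further 6 had an unadjusted p below 0.05, which makes 8 of 28 beside 9.63% of the genes tested. These counts describe the members, since an isoform that rises with the chosen sum can also gain in share.

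Rank 85 had 193, 239 and 246 CPM in the LPS 24 h pools, against 104, 73.8 and 77.6 CPM in the PBS 24 h pools, over 8 isoforms. The isoform ranked 3 by level took up 17.1%, 28.1% and 21.1% of its counts in the LPS 24 h pools, against 0.09%, 0% and 0% in the PBS 24 h pools. It took up 22.7%, 24.3% and 6.07% in the LPS 4 h pools, against 13.4%, 10.2% and 0% in the PBS 4 h pools. Shares of 0 allow up to 0.121% and 0.0994% in PBS 24 h replicates 2 and 3 and up to 0.0779% in PBS 4 h replicate 3, from 3 counts of the gene's total, and cover counting error alone. The isoform was at or near 0 in all PBS 24 h pools and in 1 PBS 4 h pool. With 33.0, 67.2 and 51.8 CPM in the LPS 24 h pools, it supplied part of the rise that the rule chose. The adjusted p for the split was 9.98e-05 by edgeR's diffSpliceDGE, and 5.80e-09 to 0.00668 over its alternatives, whereas limma's diffSplice gave 0.385.

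Rank 97 had 177, 254 and 246 CPM in the LPS 24 h pools, against 97.8, 88.4 and 90.0 CPM in the PBS 24 h pools. Its main isoform, of 3, held 97.8%, 98.2% and 98.8% of its counts in the LPS 24 h pools, against 93.7%, 93.3% and 93.9% in the PBS 24 h pools. It held 95.4%, 96.7% and 96.4% in the LPS 4 h pools, against 96.8%, 95.1% and 96.2% in the PBS 4 h pools. The groups did not overlap at 24 h and did at 4 h. The remaining isoforms held 1.6% and 1.64% of the gene's counts over all libraries. In the PBS 24 h pools, 1 of them held 3.49%, 4.45% and 0.63%, and the other held 2.84%, 2.26% and 5.43%. With isoforms under 5% of their gene left out, rank 97 had no split left to test. The main isoform made up most of the sum that the rule chose to be higher, so its share is tied to the choice. The adjusted p was 0.0249 by edgeR's diffSpliceDGE. It was 0.112 by limma's diffSplice, and between 0.0513 and 0.153 without any 1 of the PBS 4 h pools, PBS 24 h replicates 1 and 2, or any 1 of the LPS 24 h pools.

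**Figure D5:**
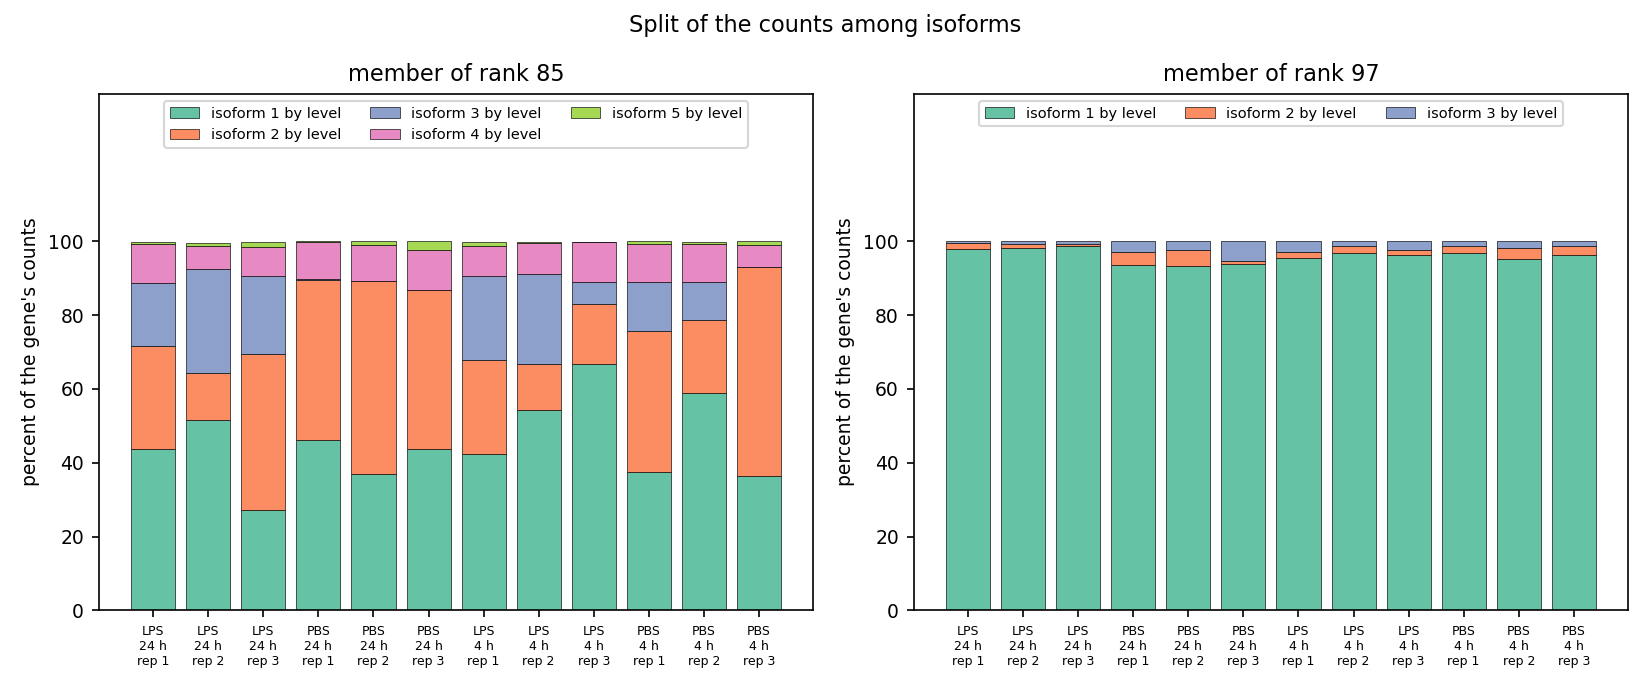
Percent of the gene's counts held by each isoform (stacked bars) in the 12 pools, for the members of rank 85 and 97, with isoforms under 0.5% of the gene's counts left out. In rank 85 the isoform ranked 3 by level, blue, is 17.1% to 28.1% in LPS 24 h pools and at most 0.09% in PBS 24 h pools, and in rank 97 the main isoform is 97.8% to 98.8% in LPS 24 h pools, against 93.3% to 93.9% in PBS 24 h pools.

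Trinity puts genes that share reads in a read cluster, given by the first parts of the identifier, and the 200 members lay in 200 clusters. Those clusters held 7 other Trinity genes. Of these, 6 averaged at least 5 CPM in the LPS 24 h pools, with a median ratio of LPS 24 h to PBS 24 h of 1.30, and 3 had all LPS 24 h pools above all PBS 24 h pools. The size of the 24 h ratio was weakly related to level over the members, with a Spearman correlation of -0.24 between the mean LPS 24 h log2 CPM and the log2 ratio, across genes that share all libraries and are not independent replicates.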

How the data were processed

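RNA was sequenced from 12 pools of meagre spleens, with 4 fish in each pool, and each pool gave 1 library. The deposited values are estimated counts per assembled transcript, given by the authors as whole numbers. Per the submitters' processing notes, Trimmomatic 0.39, FastQC, Bowtie2, RSEM and DESeq2 were used, with no role or order. The counts were treated as RSEM expected counts already rounded, and tests used them as deposited. How the transcripts were assembled and annotated, and whether counting used strand, were not given in the sources used here. Any isoforms and near-identical gene copies share reads, so the split of counts among them is uncertain.

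Counts were summed per Trinity gene, meaning the identifier without its isoform number. CPM is the count scaled to a library total of 1000000. Ratios used CPM + 0.5. TMM-scaled CPM, which divides by edgeR's effective library totals, was the other scale. The members were the 200 highest scores of a rule that used the LPS 24 h, PBS 24 h and PBS 4 h pools and LPS 4 h replicates 1 and 3. The members and lists were chosen with earlier results of these data known. Contrasts of those pools are therefore descriptions.

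The fit was edgeR 4.0.16 in R 4.3.3, a robust quasi-likelihood test on all 12 libraries with TMM scaling and 1 mean per group. It tested the 32542 Trinity genes that passed edgeR's expression filter. The DESeq2 shares are over the 42217 genes with at least 1 count, and any gene without an adjusted p there was counted as not called. Adjusted p-values were by the Benjamini-Hochberg method over all genes tested, two-sided, and called below 0.05. The split of counts among isoforms was tested with edgeR's diffSpliceDGE over 3872 genes. The alternatives were DESeq2 1.42.0, limma 3.58.1, other scaling, filters and pseudocounts, a replicate block, and each library left out in turn. Choosing the 200 without 1 of the 24 h pools, leaving out isoforms under 5% of their gene and reading the background without LPS 4 h replicate 2 were choices made after the data had been seen. The fits were also run on simulated counts with known changes, and the outcome is not given here. No simulated pool deviated from its group in mean as LPS 4 h replicate 2 did, so the fits were not tested for that case. The deposited table holds no gene names, so the naming rule gave the identifiers of the 2 highest scores, and other members are given by rank. The other members described one by one were chosen after their values were seen. The replicates are pools of separate fish, so the spread between them holds differences between fish and technical error.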

Additional observations from a re-analysis of the deposited data

Results flagged for a closer look

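An LPS effect that differed between the 2 times was called by edgeR in 134 of 200 members when LPS 4 h replicate 2 was left out, and in 0 members with all 12 libraries, where 186 had an unadjusted p below 0.05 and DESeq2 called 108. The rule chose the members with the same pools, so the count of 134 is a description, beside 9.53% of all genes called higher. With all 12 libraries the shares of all genes in either direction were 0.0154%, 17.4% and, in DESeq2, 2.48% of 42217 genes.

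LPS 4 h replicate 2, a pool outside the rule, was above all PBS 4 h pools in 165 of 200 members, which is 82.5% of them, beside 74.8% of the other eligible genes and 27.4% of the other genes of at least 5 CPM. The labels put it in the LPS 4 h group, and over all genes its counts were nearest to those of LPS 24 h replicate 1 (chi-square per degree of freedom 27.6) and PBS 4 h replicate 1 (34.9). Whether it belongs to its labelled time was not tested.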

How the results depend on the processing

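The median log2 ratio of LPS 4 h replicate 2 to PBS 4 h and the fitted 24 h fold changes of the 2 named members kept their direction in every alternative run, at 2.85 to 3.43 for TRINITY_DN1665_c0_g1 and 1.97 to 2.48 for TRINITY_DN13431_c0_g1. Members called for LPS 24 h against PBS 24 h were 165 to 200 under other tools, scaling, filters and the replicate block. In those fits 453 of 32542 to 2093 of 42217 genes were called higher. With 1 library left out, the members called were 15 to 199, where 28 of 33343 to 1736 of 33524 genes were called higher. Members called for LPS 4 h against PBS 4 h were 13 with DESeq2, beside 2309 of 42217 genes. With 1 library left out they were 0 to 22, beside 7454 of 33524 genes at the highest. For PBS 24 h against PBS 4 h they were 2 with DESeq2, beside 350 of 42217 genes. They were 1 with only the groups compared in the fit, beside 82 of 30886 genes. With any 1 library left out they were 0, where at most 149 of 33524 genes were called. For LPS 24 h against LPS 4 h they were 128 with DESeq2, beside 5673 of 42217 genes. They were 0 with only the groups compared, where 0 of 30762 genes were called. With 1 library left out they were 0 to 118, beside 10113 of 33524 genes at the highest. For the difference of the LPS effects they were 108 with DESeq2, beside 1048 of 42217 genes. With 1 library left out they were 0 to 134, beside 5432 of 33524 genes at the highest. Members called for isoform usage were 0 with limma's diffSplice, beside 38 of 3872 genes. They were 1 with isoforms under 5% of their gene left out, beside 35 of 3196 genes. With 1 library left out they were 1 to 2, beside 18 to 58 of the genes tested.

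Of the 200 members, the rule kept 119 on TMM-scaled CPM, 107 with all 3 LPS 4 h pools, and 149 to 184 with 1 library left out. With all 3 LPS 4 h pools, 198 of the 200 still met the limits while the eligible genes grew to 1118 from 700, so nearly all lost members were outranked. On TMM-scaled CPM, 157 still met the limits among 1014 eligible genes. The count of 29 members with low PBS 24 h was 17 with a pseudocount of 2, and 18 to 53 with 1 library left out. The cause of the other changes was not tested.

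Libraries of the same replicate number did not deviate together more than others did. Whether they shared a batch was not tested. Deviations from the group means correlated at -0.408 to 0.177 between libraries of the same number and at -0.354 to 0.408 between libraries of different numbers. With the replicate block, 165 members were called for LPS 24 h against PBS 24 h, beside 453 of 32542 genes called higher. For LPS 24 h against LPS 4 h, 0 members and 0 genes were called with it. For isoform usage 1 member was called, beside 19 of 3872 genes, and rank 97 was lost at an adjusted p of 0.0937 by edgeR's diffSpliceDGE. The precision is limited by 3 pools a group.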
